A study of Mus musculus with 6 samples.

Results

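The mouse expression array used here carries, beside its probes for named genes, a set of probes named only by a stretch of the mm9 genome and a strand letter, F for the plus and R for the minus strand. These are the design's long intergenic noncoding RNA (lincRNA) regions. A probe was taken as a member when its name was a chromosome, a start, an end and F or R, which gave 16181 of the 55681 probes that are not controls, in 4607 regions. Another 13 probes named by a chromosome stretch carry no strand letter and were not members. The regions lie on 20 chromosomes, with none on Y, and divide into 2318 F and 2289 R regions. They hold between 1 and 10 probes (median 3) of 60 bases, each spotted once, and their length runs from 62 to 7128487 bases, with a median of 10676. The regions are not independent of each other: 2104 of them overlap another region of the same strand, and merging these leaves 3362 separate loci.

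Total RNA of cardiac muscle from male C57BL/6 mice was hybridised in 1 colour (Cy3) to 6 arrays. The sham group (n = 3) was housed and fed alike, beside the tail-suspension group (n = 3), whose hindlimbs were lifted off the floor by the tail for 28 days to simulate microgravity. The labels name no transgene, knockout or drug for either group. By the labels, tail-suspension began at 10 weeks of age, yet the age stated for both groups is 11 weeks. All 10 cardiomyocyte markers on the array were well above background and tested, and Actc1, the cardiac actin, was the 1 marker called, at -0.33 on the log2 scale. Of the other cell type markers, 5 of 8 tested neutrophil markers rose (summed level relative to each array's 75th percentile 146 to 173 in sham and 209 to 239.7 after tail-suspension), and 1 of 7 macrophage markers rose. Csf3r, which was not called, made up most of the neutrophil sum, and the 5 that rose summed to 0.597 to 0.945 in sham and 8.02 to 50.3 after tail-suspension. Of the erythroid markers 2 of 6 fell (summed level 431 to 697 in sham and 108 to 346 after tail-suspension), and 2 of 5 T and B cell markers fell. Over all tested probes, 10.6% were called higher and 9.6% lower. The 1 of 7 macrophage markers and the 1 of 10 cardiomyocyte markers lay near these shares. The erythroid marker Klf1 and the skeletal muscle myosins Myh1, Myh2 and Myh4 were not well above background on any array. The part of these shifts in the region results was not tested, and in whole tissue fewer cells of a type and less RNA per cell cannot be told apart.

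LincRNAs are transcribed from stretches between protein-coding genes, are often spliced and polyadenylated like messenger RNAs, and have no long open reading frame. Many are confined to few tissues and are present at few copies per cell. Known members act as scaffolds of nuclear bodies, as guides of chromatin proteins or through the act of being transcribed beside a gene, and some transcripts once listed as noncoding were later found to encode micropeptides. The strand matters for such a probe, because an antisense transcript of the same bases is a different RNA.

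The probe sequences below belong to the regions on which the comparison of the groups turns. Each is printed 5′ to 3′ as the array design gives it, with mm9 coordinates from the same files. The probes of the 3 largest rises are shown first.
chr6:31007184-31007725_R (chr6:31007262-31007321, minus strand): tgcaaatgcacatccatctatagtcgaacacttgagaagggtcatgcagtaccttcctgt
chr7:99879368-99889978_R (position in the region not given, minus strand): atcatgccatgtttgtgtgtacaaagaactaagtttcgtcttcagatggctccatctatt
chr10:96098058-96098623_F (chr10:96098468-96098527, plus strand): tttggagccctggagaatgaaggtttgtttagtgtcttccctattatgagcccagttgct
The probes of the 3 largest falls follow.
chr4:119967625-119978325_F (chr4:119975921-119975980, plus strand): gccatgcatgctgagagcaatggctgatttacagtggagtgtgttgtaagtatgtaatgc
chr10:62267317-62269871_R (chr10:62267723-62267782, minus strand): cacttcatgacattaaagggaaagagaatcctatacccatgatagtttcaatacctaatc
chr13:24615451-24615973_F (chr13:24615882-24615941, plus strand): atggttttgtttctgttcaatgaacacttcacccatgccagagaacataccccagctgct
Next are a pair of probes of the same region and strand that moved in opposite directions, 1769 bases apart from start to start.
chr12:72103832-72116875_R (chr12:72107634-72107693, minus strand): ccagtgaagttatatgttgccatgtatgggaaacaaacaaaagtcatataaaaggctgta
chr12:72103832-72116875_R (chr12:72109403-72109462, minus strand): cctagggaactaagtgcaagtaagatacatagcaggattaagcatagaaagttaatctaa
The last pair reads the F and the R strand of the same region, and its change differed more between the strands than in any other pair with a call.
chr17:46972160-46997919_F (chr17:46994312-46994371, plus strand): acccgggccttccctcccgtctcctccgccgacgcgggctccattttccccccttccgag
chr17:46972160-46997919_R (chr17:46990852-46990911, minus strand): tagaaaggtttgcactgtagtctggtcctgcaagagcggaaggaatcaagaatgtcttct
The GC content of the F probe of this pair was 71.7% and that of the R probe 45%, while the median over the tested region probes was 45%. Of the 16181 probes, 16063 have mm9 coordinates in the files, and each of these lay inside its region on the strand of its letter.

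The first question was how much of this set gave a signal in the heart. A probe counted as detected on an array when the scanner software flagged it as well above background. Of the region probes, 31.9%, 32.3% and 33.9% were detected in the 3 sham hearts, against 35.7%, 32.6% and 33.0% in the tail-suspended hearts. All other probes were detected at 58.4% to 60.7% on the same arrays, and the region probes lay lower on each of the 6, by a mean of 26.2 percentage points in sham and 25.6 after tail-suspension. Sham hearts had a mean of 32.7% ± 1.05 (SD, n = 3), tail-suspended hearts one of 33.8% ± 1.66 (SD, n = 3). This difference of 1.09 percentage points was within the spread of the arrays (two-sided exact permutation test, p = 0.5, where 0.1 is the smallest p that 3 arrays against 3 allow).

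**Figure D1:**
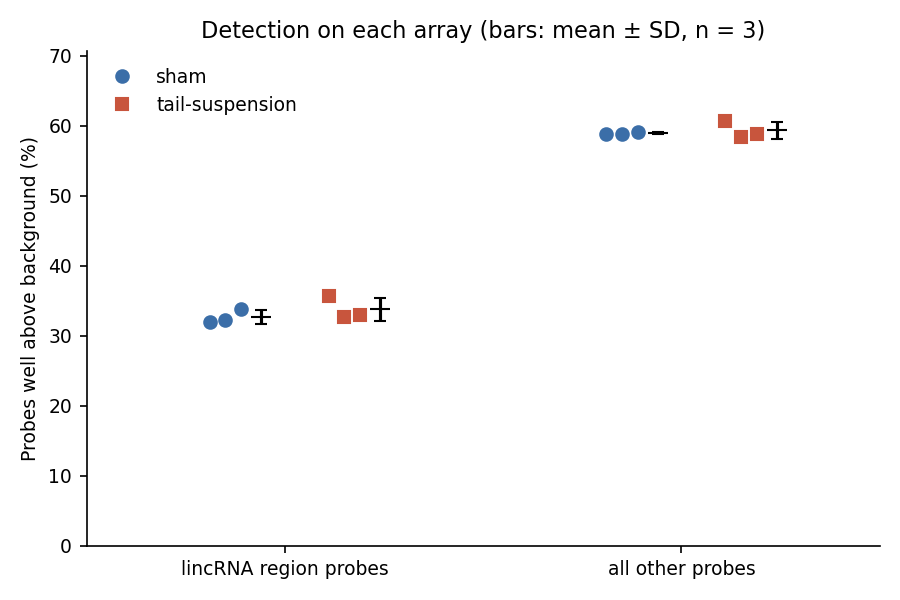
Share of probes well above background on each array, in percent, for the lincRNA region probes and all other probes, with 3 sham (circles) and 3 tail-suspension arrays (squares) and the mean ± SD of each group. The region probes sit between 31.9% and 35.7% on the 6 arrays, and the other probes between 58.4% and 60.7%.

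Counted over the arrays, 9399 region probes (58.1%) were detected on none, 4449 (27.5%) on all 6 and 2333 (14.4%) on some. Among the other probes, 55.1% were detected on all 6. At the level of regions, 1486 of 4607 (32.3%) had no probe detected on any array. A probe was tested when it was detected on every array of at least 1 group, and 5047 region probes (31.2%) met this, against 58.2% of the other probes. These fell into 2467 regions. Of the 3917 regions with several probes, 511 had all probes tested, 1725 some and 1681 none, so a region was most often read only in part.

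Detection varied with base composition and strand. Of the region probes with a GC content under 35%, 14% were tested, and the share was 27.7% at 35% to under 45%, 30.9% at 45% to under 55% and 47.9% at 55% or more. The other probes ran from 44.8% to 67.9% over the same classes, so the order of the classes was the same in both sets. The F probes were tested at 28.9% and the R probes at 33.6%, with a median GC content of 45% in each. By chromosome the share lay between 23.0% on chromosome 9 and 37.2% on chromosome 2. The median processed intensity of the tested region probes was 67.5 over the 6 arrays, against 419 for the other tested probes. Brightness also depends on the sequence of the probe, so an order of probes by signal is not an order of RNA levels. The median level of the tested region probes, in log2 units relative to each array's 75th percentile, was -2.32 ± 0.07 (SD, n = 3) for sham hearts and -2.25 ± 0.05 (SD, n = 3) for tail-suspended hearts (two-sided exact permutation test, p = 0.3).

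The second question was which regions changed in tail-suspended mouse hearts. With limma and Benjamini-Hochberg adjustment over all 28030 tested probes, 570 region probes were called higher and 325 lower at an adjusted p under 0.05. That is 17.7% of the tested region probes, against 20.2% of all tested probes and 20.8% of the tested probes outside the regions. A change of at least 2-fold was reached by 165 of the higher probes (3.27% of the tested region probes, background 2.7%) and by 58 of the lower ones (1.15%, background 1.66%). The 2 groups did not overlap for 1817 tested region probes (36%, background 44%), and all 895 called probes were among them. Called shares by chromosome ran from 11.2% on X to 24.9% on chromosome 13. The median standard error of a change was 0.15 for region probes and 0.12 for the others on the log2 scale.

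Of the called region probes, 63.7% were higher (11.3% of those tested, background 10.6%, were called higher, and 6.44%, background 9.6%, lower), while 50.5% of the calls outside the regions were higher. This split depended on the background correction: with normexp, 244 region probes were higher and 327 lower, which is 42.7% higher. It also varied with brightness. With all tested probes divided into 4 equal classes by level, from the dimmest to the brightest, 70.0%, 60.3%, 57.2% and 47.2% of the calls among region probes were higher, and 52.7%, 51.0%, 45.7% and 53.1% of the calls among the others. The counts also moved when 1 array was left out, as did those over all 28030 tested probes (in brackets, 2984 and 2691 with every array). They were 290 higher and 147 lower without sham replicate 1 (1423 and 1070). Without sham replicate 2 they were 215 and 79 (1012 and 757), and without sham replicate 3 489 and 184 (2132 and 1978). Without tail-suspension replicate 1 they were 312 and 194 (1534 and 1491). Leaving out tail-suspension replicate 2 gave 521 and 370 (2889 and 2691), and leaving out tail-suspension replicate 3 gave 250 and 115 (1138 and 936). The arrays of sham and tail-suspension replicate 1 lay in the first row of the slide and the other 2 tail-suspension arrays in the second. A fit blocked by row compares tail-suspension replicate 1 with the sham arrays. It gave 52 of the 5047 tested region probes higher and 24 lower, against 324 and 177 of all 28030 tested probes. That fit ended 24 of the 32 calls named below. Their direction could not change in it, because the groups of a called probe do not overlap.

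**Figure D2:**
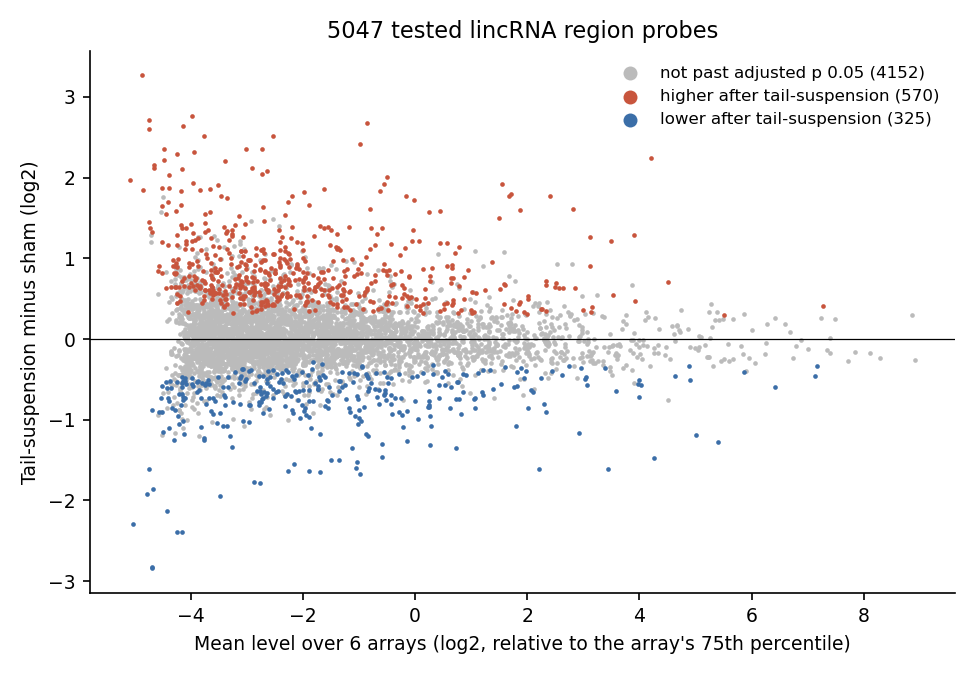
Change (tail-suspension minus sham, log2) against the mean level over the 6 arrays (log2, relative to each array's 75th percentile) for the 5047 tested region probes. The 570 probes called higher and the 325 called lower are coloured, and most tested probes lie at negative levels, around the median of -2.32.

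Read as 1 probe per region, the tested probe with the highest mean level, 216 of 2467 regions were higher (8.76%, background 10.5%) and 163 lower (6.61%, background 10.6%). Together these are 15.4% of the regions, against 21.1% of the other names on the array read the same way, which form this background. When the mean of the tested probes stood for the region, 236 were higher and 156 lower. At least 1 called probe was found in 529 of the 2467 regions, a count that grows with the number of probes tested in a region. No background of this kind is given. In the order below, each region is read from 1 probe chosen for the size of its change, so the size is a description of the extremes of this set, and the other tested probes of the region are described beside it.

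The largest rise with a measured signal in both groups was at chr6:31007184-31007725_R, a stretch of 542 bases with no named gene on the array within 100 kb. Processed intensities of 74.3, 51.7 and 80.8 were read in sham hearts and of 538, 333 and 712 after tail-suspension. The change was 2.68 in log2 units (standard error, SE, 0.32, limma adjusted p = 0.00457), or 6.41-fold. The other 2 probes of the region rose by 2.42 and 2.52. At chr7:99879368-99889978_R the intensity was 20.0, 13.7 and 17.8 in sham and 78.9, 135 and 95.2 after tail-suspension, a rise of 2.36 (SE 0.21, limma adjusted p = 0.00245), with the sham signal well above background on 2 of 3 arrays. All 10 probes of this region were tested and 5 were called, all higher, while the lowest stood at -0.04. Probes of the same region and strand thus ran from -0.04 to 2.36, a 5.12-fold rise.

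At chr10:96098058-96098623_F the intensity was 19, 18.5 and 25.3 in sham and 164, 44.4 and 254 after tail-suspension, a rise of 2.35 (SE 0.62, limma adjusted p = 0.0413). The 3 tail-suspension arrays differed widely from each other, the call was lost under 9 of 18 alternatives (highest adjusted p = 0.16), among them leaving out any array but tail-suspension replicate 2, and a second probe 343 bases away stood at -0.12 (adjusted p = 0.438). The nearest named gene on the same strand, Btg1, an antiproliferative factor 12641 bases away, rose by 1.75. The region at chr13:21856097-21859200_R has 1 probe, with an intensity of 3256, 2372 and 2409 in sham and 13740, 11502 and 19667 after tail-suspension. It rose by 2.25 (SE 0.22, limma adjusted p = 0.0028) and passed the threshold under all 18 alternatives. The histone gene H2ac15, 10401 bases away on the same strand, fell by 0.46 (limma adjusted p = 0.0385), and histone genes have near-identical copies that its probe may also read.

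At chr14:79724027-79729152_R the intensity was 15.5, 3.4 and 3.9 in sham and 30.1, 29.3 and 30.2 after tail-suspension, a rise of 2.12 (SE 0.54, limma adjusted p = 0.0376). The sham signal was well above background on 1 array only, so the size of this change rests on 2 sham values that were not, and the call was lost under 11 of 17 alternatives (highest adjusted p = 0.419), among them leaving out any array but sham replicate 1. Of the other tested probes of the region, the 1 detected on all 6 arrays stood at 0.35 (adjusted p = 0.141) and was not called, and the other, detected on no sham array, was called higher. At chr1:175660642-175671878_R the intensity was 21.0, 12.9 and 29.2 in sham and 109, 80.3 and 116 after tail-suspension, a rise of 2.12 (SE 0.32, limma adjusted p = 0.00956), with the sham signal well above background on 2 of 3 arrays. Its other probes stood at 1.77, which passed the threshold, and at 0.32, which did not. This region lies 5674 bases from Ifi204, an interferon-activated gene of the PYHIN family, which rose by 1.20 on the same strand.

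Of the falls, chr4:119967625-119978325_F had an intensity of 71.7, 43.8 and 51.7 in sham and 15.1, 13.0 and 22.9 after tail-suspension. The change was -1.94 (SE 0.25, limma adjusted p = 0.00638), the signal was well above background on 2 of 3 tail-suspension arrays, and another probe of the region stood at -0.28 and was not called. At chr10:62267317-62269871_R the intensity was 82.9, 99.9 and 75.1 in sham and 34.7, 28.2 and 24.0 after tail-suspension, a change of -1.79 (SE 0.19, limma adjusted p = 0.00338). All 3 probes of this region fell, with changes of -1.68, -1.77 and -1.79, and the fall passed the threshold under all 18 alternatives. Tet1, which oxidises methylated cytosines in DNA and lies 4577 bases away on the same strand, fell by 1.51. At chr13:24615451-24615973_F the intensity was 166, 165 and 180.4 in sham and 102, 56.2 and 44.1 after tail-suspension, a change of -1.64 (SE 0.33, limma adjusted p = 0.0199). All 3 probes fell, but the call of this one was lost under 7 of 18 alternatives (highest adjusted p = 0.0891), among them leaving out any sham array or tail-suspension replicate 3.

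The overlapping regions chr10:69669025-69686275_F and chr10:69679644-69682458_F were read by probes that share most of their bases, so they count as a single observation. For the first, the intensity was 100.2, 113 and 131 in sham and 28.6, 73.4 and 36.4 after tail-suspension, a change of -1.64 (SE 0.32, limma adjusted p = 0.0186). Tail-suspension replicate 2 fell least, and all 5 probes of the longer region fell, with changes from -1.17 to -1.64. The call was lost under 6 of 18 alternatives (highest adjusted p = 0.0785), among them leaving out sham replicate 2, sham replicate 3 or tail-suspension replicate 3. A probe of Mrln lies inside on the same strand and fell by 1.48. Mrln encodes myoregulin, a micropeptide that inhibits the calcium pump of the sarcoplasmic reticulum in muscle, so this locus is named intergenic on the array but holds a coding gene. At chr2:113880070-113887230_F the intensity was 6126, 6756 and 5077 in sham and 2356, 1993 and 2454 after tail-suspension, a change of -1.61 (SE 0.14, limma adjusted p = 0.00234), with all 3 probes falling and the threshold passed under all 18 alternatives. Actc1 lies 6947 bases away on the opposite strand and changed by -0.33.

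**Figure D3:**
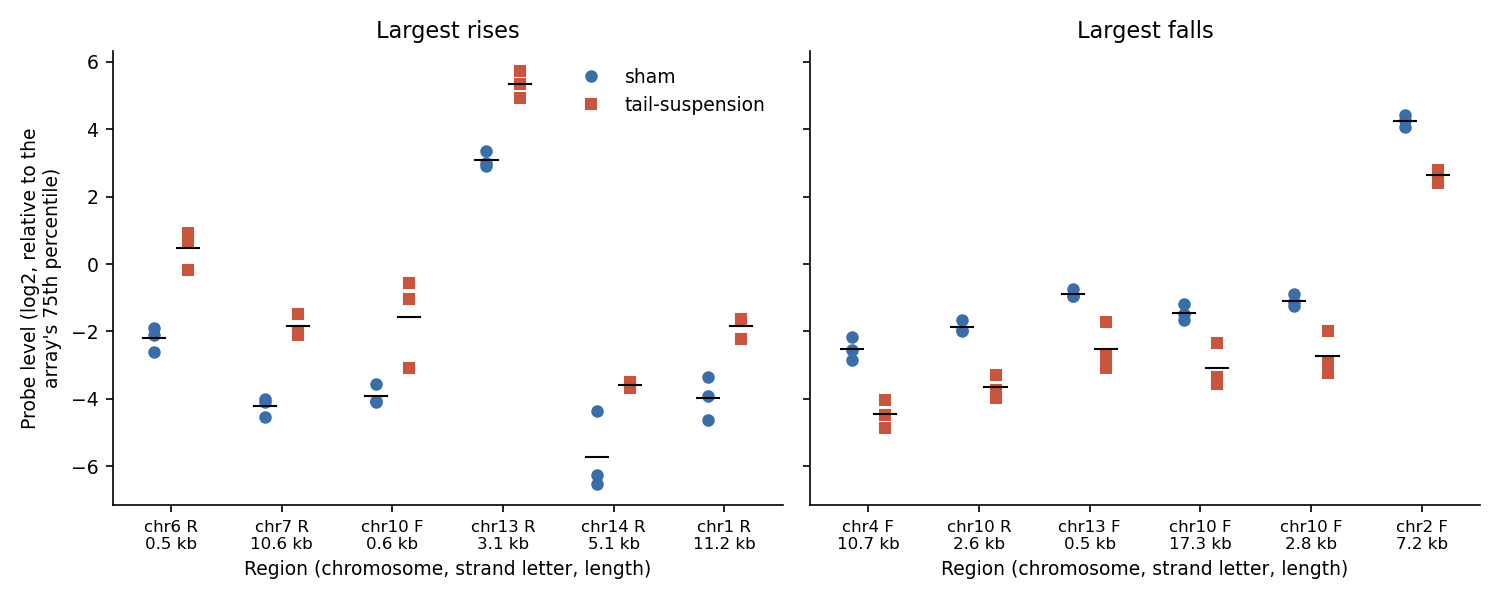
Level of the probe of each of the 6 largest rises and 6 largest falls (log2, relative to each array's 75th percentile) on the 3 sham (circles) and 3 tail-suspension arrays (squares), with lines at the group means. The 12 were chosen among probes whose groups do not overlap, and the sham values at the chr14 region and the tail-suspension values at the 0.6 kb chr10 region spread most.

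Some probes were detected in 1 group alone, at times beside probes of the same region that were detected in both. Of the tested region probes, 72 were well above background on no sham array and 35 on no tail-suspension array. Such a probe had to differ to be tested, so the adjusted p beside it describes the fit and is no independent support, and its change is given only as a bound against the lowest signal that was well above background on the dim arrays. At chr18:61781410-61788685_R the intensity was 4.1, 3.1 and 3.1 in sham, not well above background, and 35.4, 36.3 and 43.2 after tail-suspension, at least 2.18-fold higher (limma adjusted p = 0.000407, and 0.0638 with normexp, the highest of 17 alternatives). All 5 probes of this region were called higher, and the probe detected on all 6 arrays rose by 0.73. At chr1:175654606-175672031_F the intensity was 7.3, 8.4 and 7.3 in sham and 58.1, 47.4 and 78.1 after tail-suspension, at least 3.42-fold higher (limma adjusted p = 0.00154). Of its 4 tested probes, none well above background on a sham array, 3 were called higher and 1 had an adjusted p of 0.0506. Opposite to it, Ifi207, a further PYHIN gene 884 bases from the region, rose by 1.87, so both strands of this locus were higher. At chr5:107504871-107507830_F, 27988 bases from Tgfbr3, which encodes the coreceptor betaglycan, the probe read 3.5, 3.4 and 8.0 in sham and 22.0, 39.7 and 47.1 after tail-suspension and was at least 1.97-fold higher (limma adjusted p = 0.00909, lost under 3 of 17 alternatives).

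Among the falls of this kind, chr16:13514223-13516070_R had an intensity of 31.0, 22.3 and 48.8 in sham and 4.5, 7.8 and 4.1 after tail-suspension, at least 2.24-fold lower (limma adjusted p = 0.00544). The noncoding transcript 2310015D24Rik lies inside on the same strand, and its own probe gave a fitted change of -2.45. At chr13:28490070-28492645_R the intensity was 28.3, 48.3 and 24.2 in sham and 7.9, 4.6 and 4.0 after tail-suspension, at least 2.23-fold lower (limma adjusted p = 0.00559), with all 3 probes called. The long region chr13:28477490-28985604_R spans it on the same strand and was at least 1.47-fold lower by another probe (limma adjusted p = 0.00706). Its probe with the highest signal, 426848 bases along, read 2382, 2264 and 2048 in sham and 2872, 3078 and 2803 after tail-suspension, a change of 0.18 that was not called. Sox4, a transcription factor 55222 bases from the long region, fell by 1.52.

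The probes with the highest signal did not move by these amounts. For the 6 brightest regions, chr2:168804720-168854970_R, chr19:5801802-5802597_R, chr17:17481706-17482457_R, chr14:78924115-78938125_F, chr4:33364774-33364898_R and chr7:108209996-108216032_R, the changes of the brightest probe were -0.26, 0.30, -0.23, -0.17, -0.16 and 0.25, and none passed the threshold. The second of these lies 6030 bases from the Malat1 probe on the same strand. That distance is to a probe, so whether the region lies inside the Malat1 transcript was not tested. The intensity of the region's brightest probe was 124625, 140095 and 129719 in sham and 161616, 210880 and 193774 after tail-suspension. The groups thus did not overlap, but the change of 0.30 (standard error 0.10) had an adjusted p of 0.0778 by limma. Malat1, a long noncoding RNA of nuclear speckles, rose by 1.59 at that nearest probe. It was 1 of 33 long noncoding RNAs with names on the array, of which 23 were tested, 7 were higher (background 10.6%) and 1 lower (background 9.6%), with a median change of 0.20 against -0.02 over the tested probes outside the regions. The named ones that rose were Malat1, H19, Neat1, Rmst, Firre, Snhg12 and Zfas1, and the 1 that fell was Mhrt.

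Whether the probes of a region moved together was examined next. In 1242 regions with at least 2 tested probes, the changes had the same sign in 793 (63.8%). The difference between the highest and the lowest change of a region had a median of 0.27 and exceeded 1 in 76 regions. Agreement depended on the distance between the probes. Of 3863 probe pairs under 1 kb apart, 80.0% had changes of the same sign (Pearson r = 0.78 across pairs), of 818 pairs at 1 to 10 kb 63.4% (r = 0.37), and of 395 pairs at 10 to 100 kb 56.7% (r = 0.37). The pairs share arrays and probes and are not independent, so these are descriptions. Where both probes of a pair were called, the direction was the same in 537 of 543, 60 of 70 and 31 of 31 pairs. At the level of detection, both probes were tested in 44.8% of the pairs under 1 kb with at least 1 tested, and in 27.5% and 25.6% of the farther ones.

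Among 191 regions with at least 2 calls, 123 had calls only in the higher and 63 only in the lower direction, and 5 had both. These 5, named after their values were seen, are chr12:72103832-72116875_R, chr14:22267795-22319045_F, chr1:175705225-175717250_R, chr5:123582742-123588202_F and chr8:87504644-87513694_R. At chr12:72103832-72116875_R, 4 of 8 tested probes were higher and 2 lower. The probe with the highest change had an intensity of 38.1, 33.3 and 35.9 in sham and 117, 176 and 119 after tail-suspension, a change of 1.70 (limma adjusted p = 0.0026). The probe with the lowest had 19.3, 21.5 and 25.8 in sham and 11.0, 7.1 and 4.0 after tail-suspension, which was not well above background, so it was at least 1.53-fold lower (limma adjusted p = 0.0205), a call lost under 7 of 17 alternatives, among them leaving out any sham array (highest adjusted p = 0.164). In chr1:175705225-175717250_R, 4 probes fell, with changes from -0.53 to -1.09, and the probe with the highest signal rose by 0.91. In chr8:87504644-87513694_R, 3 probes rose by 0.92 to 1.07 and the probe with the highest signal changed by -0.42.

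The strands were compared where a stretch is on the array with both letters, which holds for 1067 coordinate pairs. In 428 pairs (40.1%) both strands had a tested probe, in 204 the F strand alone, in 229 the R strand alone and in 206 neither. Where an F and an R probe share genomic bases, 2922 probe pairs were formed. Such pairs lie at nearly the same position, but their probes differ in sequence as well as in strand. In 297 of these both were tested, in 508 F alone, in 671 R alone and in 1446 neither, so 1 strand alone was the more frequent outcome among detected pairs. Over the 428 pairs read from their brightest probes, the change had the same sign on both strands in 242 (56.5%), and Pearson's r across pairs was 0.23. The brightest F and R probes can lie apart, by 397252 bases in a pair named below. These values therefore mix strand with position. Both strands were called in 12 pairs, always in the same direction, 1 strand in 96 and neither in 320. By strand letter, 240 of 2359 tested F probes were higher and 173 lower, together 17.5%. Of 2688 tested R probes, 330 were higher and 152 lower, together 17.9%. The called share over all tested probes was 20.2%.

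**Figure D4:**
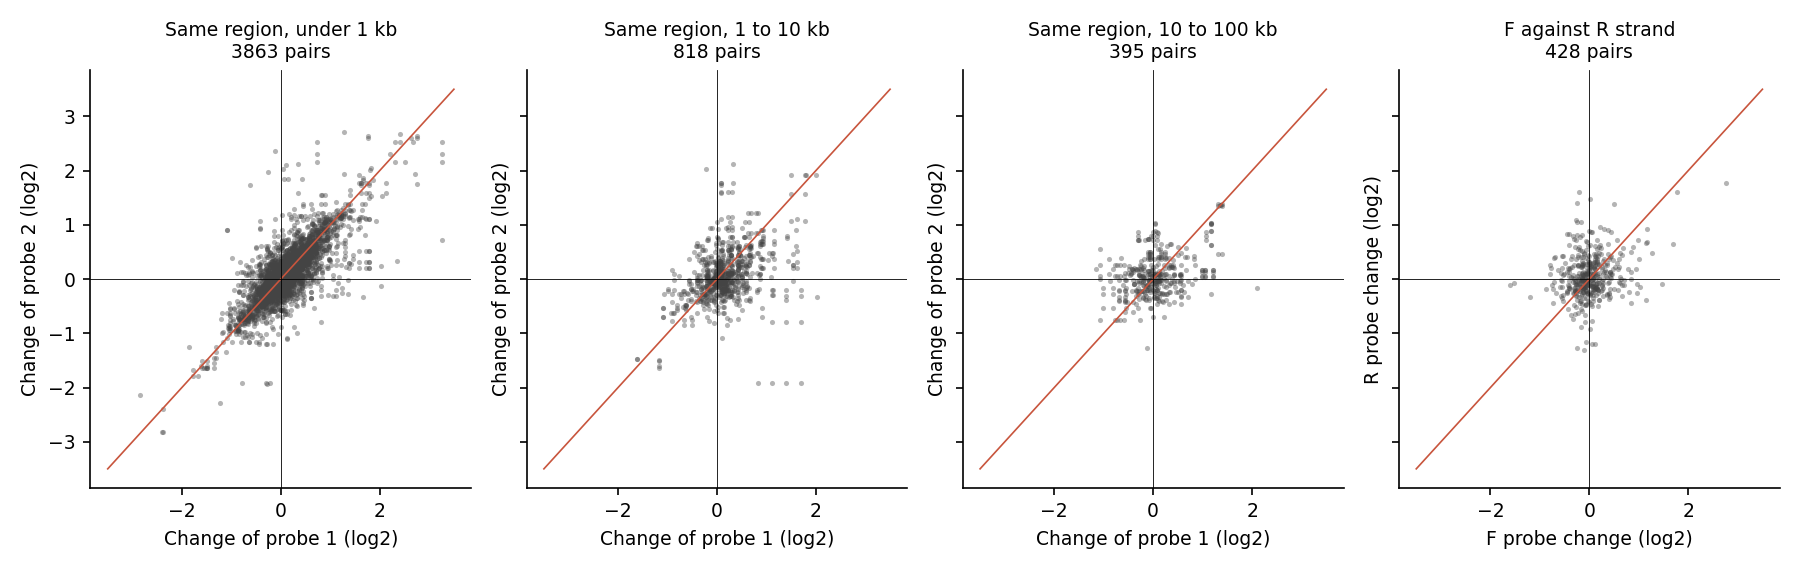
Change (tail-suspension minus sham, log2) of a probe against that of another probe of the same region, by their distance, and of the F against the R strand of the same stretch, with the line of equal change. Pairs under 1 kb apart follow the line (r = 0.78), pairs farther apart and the strands do so less (r = 0.37, 0.37 and 0.23). The F and R probes of a stretch can lie apart, so their panel mixes strand with position.

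The pair that differed most between strands among those with a call was chr17:46972160-46997919. Its R probe had an intensity of 740, 574 and 674 in sham and 2088, 3048 and 1944 after tail-suspension, a rise of 1.60 (SE 0.19, limma adjusted p = 0.00442). Its F probe, 3460 bases away, had 4161, 3859 and 3821 in sham and 4172, 3955 and 3791 after tail-suspension, a change of -0.20 (SE 0.10, limma adjusted p = 0.198). Of 7 tested R probes 4 were called higher, and of 7 tested F probes 1. At chr3:146629425-146649125 the F strand holds a probe of Ttll7, a tubulin polyglutamylase. The F probe of the region read 336, 386 and 361 in sham and 778, 921 and 1097 after tail-suspension, a rise of 1.14 beside 1.18 for Ttll7 itself. The R strand stood at -0.39 at a probe 2828 bases away and was not called. At the Mrln locus, chr10:69669025-69686275, the F strand fell by 1.52 at its brightest probe and the R strand stood at -0.08 (adjusted p = 0.83).

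Next in this order were chr7:117140887-117152562, where the F strand read 16.9, 27.0 and 18.1 in sham and was not well above background after tail-suspension (at least 1.4-fold lower, a call lost under 8 of 17 alternatives, among them leaving out any sham array or tail-suspension replicate 3) against -0.11 for the R strand, and chr5:106982442-107045717, where the R strand rose by 1.06 and the F strand stood at -0.26. For chr7:117140887-117152562 the probes of the strands share bases, while those of chr5:106982442-107045717 lie 19894 bases apart. The pairs with a call that differed least were chr11:22681800-22707775, with 0.41 on F and 0.41 on R, chr2:176784125-177183100, with 0.40 and 0.37 from probes 397252 bases apart, and chr2:167085700-167117795, with 0.36 and 0.29. Both strands of all 3 were called higher, with changes well below 2-fold, and these calls were lost under at least 9 of 18 alternatives.

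The name intergenic was checked against the positions of the gene probes, the annotation used here on the build of the files. A probe with a gene name lay inside the region on the same strand in 443 of 4607 regions (9.62%), and for 180 of these the gene is protein-coding in the RefSeq table. In 269 regions a gene probe lay inside on the opposite strand alone. For 1178 regions the nearest gene probe lay outside but within 10 kb, for 2177 at 10 to 100 kb, and for 540 there was none within 100 kb. Probes were tested most often in the first class, at 42.2%, against 24.7%, 34.8%, 29.1% and 25.2% in the others in this order. A share of the set therefore covers stretches in which the array itself reads a gene on the same strand, and gene bodies between probes can hide more.

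Where a gene and a region on the same strand were both tested, 152 of 219 pairs had changes of the same sign, with Pearson's r of 0.65 across pairs, and the 25 pairs in which both were called went the same way in each. They include Ifi207, Ttll7, 2610035D17Rik and 2810410L24Rik, which rose with their regions, and Mrln, 2310015D24Rik, Slc29a4, Saysd1 and Rnf150, which fell with theirs. With the gene inside on the opposite strand, 68 of 114 pairs had the same sign (r = 0.14), and both were called in 3. For genes outside the region within 10 kb, r was 0.30 over 346 same-strand pairs and 0.27 over 219 opposite-strand pairs, and at 10 to 100 kb it was 0.14 over 444 and 0.06 over 364. A gene can stand in several pairs, so no test was made of these values.

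**Figure D5:**
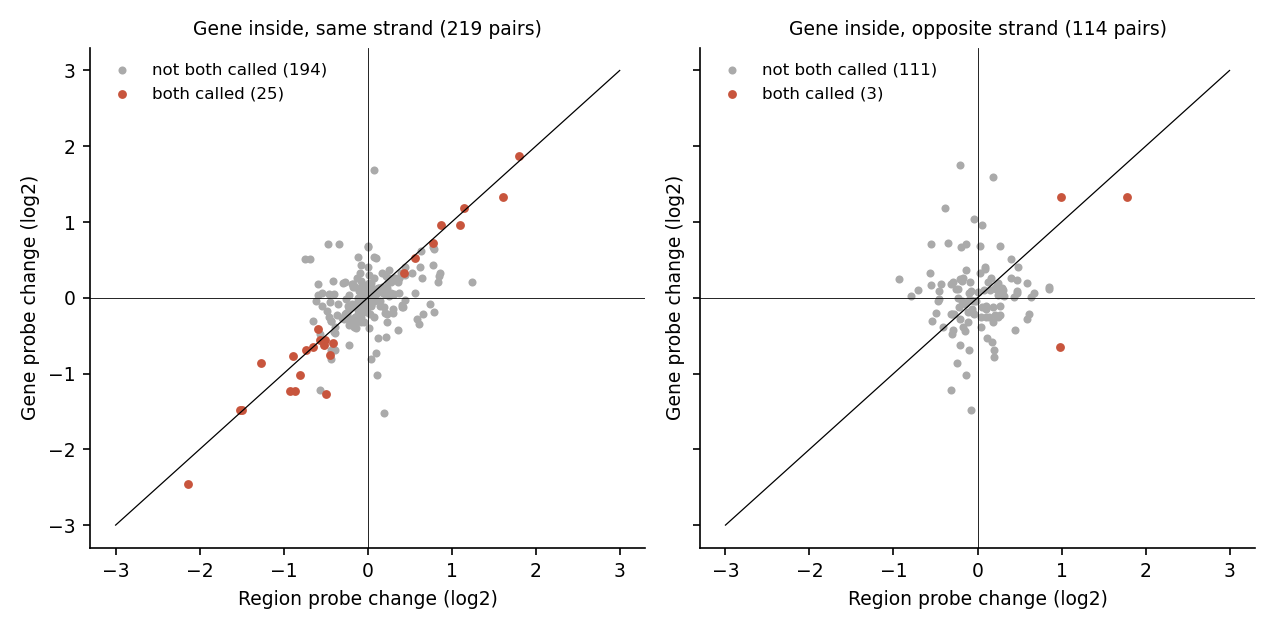
Change (tail-suspension minus sham, log2) of the brightest probe of a region against that of a gene probe inside it, on the same and on the opposite strand, with the line of equal change. All 25 same-strand pairs with both called lie in the lower left or upper right part, as do 2 of the 3 opposite-strand pairs.

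The 3 opposite-strand pairs with both called, named after their values were seen, were chr2:104640443-104659168_R with 2310047K21Rik, and chr19:5841103-5845579_F and chr19:5771425-5848475_F with Neat1. At the first, the region rose by 0.98 and the gene fell by 0.65. Neat1 is the long noncoding RNA that builds paraspeckles, and its probe read 30946, 29154 and 27906 in sham and 91958, 81302 and 84318 after tail-suspension, a rise of 1.34 (SE 0.11, limma adjusted p = 0.00223). The stretch chr19:5771425-5848475 also spans the Malat1 probe, on the strand of Neat1. The 1 tested probe of chr19:5771425-5848475_R, at chr19:5795752-5795811, shares bases with that Malat1 probe (chr19:5795713-5795772) and rose by 1.61, so on this strand the region was read at Malat1 and not at Neat1. On the opposite strand, all 10 probes of chr19:5771425-5848475_F were tested, and their changes ran from 0.08 to 1.78, with 7 called higher and 3 not called. The 2 tested probes of chr19:5841103-5845579_F rose by 0.65 and 0.99. Both strands of this locus thus held probes called higher after tail-suspension.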

How the data were processed

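RNA of 6 hearts was labelled with Cy3 and read on 6 arrays of 1 slide in 1 scan. The authors deposited, per array, the spot intensity that Agilent Feature Extraction 10.7.1.1 (per the submitters' processing notes) writes after background correction, with its flags, and a table of log2 values, whose columns have the same medians and follow the intensity at r above 0.999. Neither centring nor scaling of that table is stated in the sources used here, and it served as an alternative.

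The deposited intensity was put on a log2 scale relative to each array's 75th percentile in R 4.3.3. Controls and outlier-flagged spots were dropped, spots of 1 probe were averaged, and a probe was detected when at least 50% of its spots were flagged well above background. Tested were probes detected on all arrays of 1 group or both, by limma 3.58.1 (lmFit, eBayes, both groups, no covariates) with Benjamini-Hochberg adjustment at 0.05 over all tested probes. Permutation tests over arrays were exact and two-sided. The 3 arrays per group are separate mice, and their number limits the precision. The steps were tested on simulated data.

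A bound sets the mean of the bright group against the mean, over the dim group's arrays, of the higher of the lowest signal well above background and the probe's own. Coordinates are mm9 from the file headers, and distances to genes use gene probes with coordinates (29318). Of 31556 names outside the regions, 21911 were found among the symbols and synonyms of RefSeq's GRCm38.p6 table, used for names and gene types only. Named are the 6 largest called rises and falls detected on at least 1 array of each group, with no overlap of the groups, 3 in each direction detected in 1 group alone, the 6 brightest regions, 4 regions whose probes differ most, and the strand pairs that differ most (5) and least (3). The members, this rule and the marker and noncoding RNA lists were chosen with earlier results of these data known.

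Alternatives were normexp (offset 50), quantile normalization, the authors' log2 values, scaling to probes detected on every array, a filter at all 6 arrays or none, flagged outliers included, robust eBayes with a trend, weights per array, blocks by replicate number or slide row, the methods' t-test, a 2-fold minimum, the mean of a region's probes, other detection flags, and each array left out.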

Additional observations from a re-analysis of the deposited data

How the results depend on the processing

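The counts of 570 region probes higher and 325 lower after tail-suspension moved by over 1.5 times, in at least 1 direction, with normexp (244 and 327), without a filter on dim probes (232 and 111), with array weights (783 and 500), by the methods' t-test with adjustment (216 and 95), when blocked by replicate number (replicate block, 376 and 188), when blocked by slide row (52 and 24) and with a 2-fold minimum (165 and 58). Without 1 array they lay between 215 and 521 higher and between 79 and 370 lower. Over all tested probes, the counts without 1 array lay between 1012 and 2889 higher and between 757 and 2691 lower. Blocking by slide row gave 324 and 177 over all tested probes. The other 6 settings kept both region counts within 1.5 times. The replicate numbers pair nothing in the labels, and deviations of same-numbered arrays correlated at -0.0199, -0.0176 and 0.0496. The slide and the scan could not be fitted as blocks, with 1 of each. The cause of these shifts was not tested, except that a block leaves fewer degrees of freedom.

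Of 32 called probes named in the text or its rule, 7 passed the threshold under every alternative that gave a value. None changed sign. The groups of a called probe do not overlap, so its sign could change only where an alternative changed the values themselves. Leaving out an array, blocks, weights and the t-test could not change it. Blocking by slide row lost 24 of these calls, the methods' t-test 14 and leaving out 1 array 4 to 13. Of 13 named probes not called, 2 changed sign: the second probe of chr10:96098058-96098623_F (0.039 when blocked by slide row) and the R strand of chr10:69669025-69686275 (0.19 when blocked by slide row, and between -0.29 and 0.094 without 1 array, positive without sham replicate 1, sham replicate 2 or tail-suspension replicate 3). The difference in detection between the groups was -0.12 percentage points with the flag for a signal positive and above background, and 0.13 to 1.68 without 1 array. With detection required on all 6 arrays, the strand pairs divided into 366 on both, 213 on F, 242 on R and 246 on neither. Signal over background limits the levels: 68.8% of region probes were not tested, and 58.1% were well above background on no array, so that their levels are known only as bounds.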
